A study of Mus musculus with 2 samples.

Results

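The angiogenic and tissue growth factors examined here were 10 genes, chosen by name: Igf1, Pdgfa, Pdgfb, Pdgfc, Vegfb, Hbegf, Tgfb1, Thbs1, Spp1 and Gpnmb. Every one was found on a single line of both deposited tables, among 22886 genes in all, and all 10 passed the filter on low values, a mean over the libraries of 1 RPKM or more, as did 10982 genes. RPKM are read numbers divided by transcript length and library size, so levels can be compared between genes of different length. The data were 2 RNA sequencing libraries, 1 per condition, from wild type C57BL/6 mice that carried a subcutaneous Lewis lung carcinoma (LLC), a mouse lung tumor line grown under the skin. Cells that the labels call aerobic tumor cells were sorted from the tumors of mice injected with vehicle or with clodronate, an agent that kills phagocytes when it is delivered to them in liposomes. The labels give neither age, dose and time of injection nor the number of mice behind a library, and their growth protocol describes a cultured blood progenitor line instead of a tumor. With 1 library per condition no difference had a replicate check and no p-value was computed, so the values compare 2 libraries and not the conditions. Pairs of values are given with the vehicle library first, and higher or lower refers to the clodronate library unless stated.

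Macrophages in tumors and in healing tissue are a known source of secreted proteins that act on blood vessels, fibroblasts and matrix. Platelet-derived growth factors (PDGF) and vascular endothelial growth factors (VEGF) are dimers that bind receptor tyrosine kinases on stromal and endothelial cells, respectively, while insulin-like growth factor 1 and the EGF-like ligands act on the insulin and EGF receptor families. Transforming growth factor beta is secreted in a latent form that has to be activated outside the cell. Thrombospondin 1, osteopontin and Gpnmb are not classical growth factors but secreted or membrane glycoproteins that bind matrix, integrins or other receptors.

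The libraries were rich in macrophage RNA. All 16 macrophage markers had at least 10 RPKM in both libraries, and their summed level was 26936 and 25770 RPKM. The epithelial markers, the nearest of the lists to a carcinoma cell, reached at most 6.44 RPKM, with 3 of 8 listed at 0 in both libraries. The label of tumor cells was thus not borne out by these markers. No marker particular to the LLC line was examined, so an absence of tumor cells was not shown. The blood progenitor markers summed to 46.3 and 38.3 RPKM, of which Lmo2 made up 39.5 and 33.0 RPKM, and Gata1, Mpo and Elane were listed at 0 in both. Markers of other cells that make growth factors had lower levels, and several were listed at 0. The 10 fibroblast markers summed to 160 and 76.9 RPKM. The 8 endothelial markers summed to 3.34 and 8.26 RPKM, with Tek, Emcn and Cldn5 at 0 in both. Of the 10 platelet markers Gp9, Gp6, Tubb1 and Clec1b were at 0 in both. Itga2b had 0 and 0.247 RPKM and Gp1bb 0.151 and 1.16 RPKM. Pf4, with 437 and 600 RPKM, made up most of the platelet sum, and Ppbp had 21.3 and 40.4 RPKM. The other 2 platelet markers kept moved in opposite directions, with Treml1 at 0.428 and 5.94 RPKM and Gp1ba at 1.90 and 0.387 RPKM. In sorted bulk samples, fewer cells of a type and less RNA per cell cannot be told apart. The files give no read totals, but low values fell on multiples of a common step once multiplied by transcript length. That step put the depth at about 12800000 reads for the vehicle and 10400000 for the clodronate library. Of the loci worth fewer than 4.5 reads, 279 of 362 and 499 of 647 lay within 0.15 of a whole read, 77.1% in each library against 30% for evenly spread values. The step itself was set from 132 and 193 of these loci, the lowest cluster, so the share is in part fixed by the fit. Read numbers given here are estimates from this step, and the 95% intervals of a ratio derived from them cover counting error only.

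The 10 genes covered a wide range of levels, and 5 were higher and 5 lower in the clodronate library. The median level of the 10 was 52.4 and 41.0 RPKM, and that of all genes kept 11.1 and 11.3 RPKM. Spp1 and Thbs1 alone made up 68.3% of the summed RPKM of the 10 genes in the vehicle library and 74.3% in the clodronate library. The sum itself was 1198 and 1478 RPKM, but without Spp1 it was 792 and 723 RPKM. Differences were measured as log2 of clodronate RPKM + 1 over vehicle RPKM + 1. None of the 10 genes reached 3-fold in either direction. Among all genes kept, 2.86% were 3-fold or more higher and 2.32% were 3-fold or more lower. At 2-fold, 1 of the 10 genes was lower (Pdgfa) and 0 were higher, against 6.77% and 6.95% of all genes kept. The median log2 ratio of the 10 genes was 0.11, beside 0.02 for all genes kept, of which 51.6% lay above 0. The median size of the log2 ratio, without its sign, was 0.54 for the 10 genes and 0.39 for all genes kept.

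**Figure D1:**
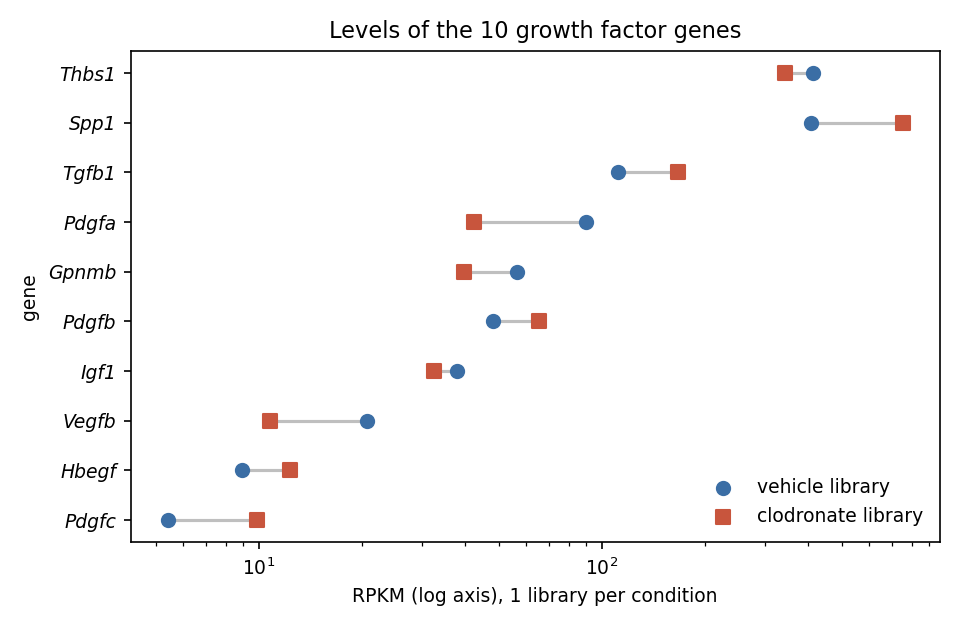
Level of each of the 10 genes in RPKM (log axis) in the vehicle library (circles) and the clodronate library (squares), 1 library per condition, ordered by the vehicle level. Thbs1 and Spp1 stand highest in both, and Pdgfa and Pdgfb exchange their order between the libraries.

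The PDGF ligands differed in opposite directions. Pdgfa, which encodes the A chain and lies on chromosome 5 from 139452928 to 139470907 (mm9, the build of the files), had 89.9 and 42.5 RPKM. This was the largest difference of the 10 genes without a correction for GC content, 2.12-fold lower (counting interval 1.96 to 2.29, about 2372 and 912 reads). Pdgfb, the B chain gene on chromosome 15 from 79826305 to 79845238, had 48.3 and 65.4 RPKM and was 1.35-fold higher (1.27 to 1.44). Pdgfc, on chromosome 3 from 80840337 to 81017953, encodes a chain that is secreted with an additional CUB domain and needs cleavage to become active. It had the lowest level of the 10 genes, 5.42 and 9.86 RPKM, a ratio of 1.82 (1.55 to 2.15) that rests on about 244 and 362 reads. A ratio of 2 genes within a library does not depend on how the library was scaled. Pdgfa stood at 1.86 times the level of Pdgfb in the vehicle library and at 0.650 times in the clodronate library, so the order of the A and B chain genes was exchanged. The 4 ligand genes together had 144 and 118 RPKM, with Pdgfd listed at 0 in both. Of the receptors, Pdgfra had 1.42 and 1.02 RPKM and Pdgfrb 0 and 0.290 RPKM. The lower Pdgfa level went along with a lower sum of the fibroblast markers, of which 7 of the 8 kept were lower. Col1a2 hardly differed (2.01 and 1.94 RPKM) and Col1a1 was higher (2.32 and 5.40 RPKM). The higher Pdgfb level went along with a higher sum of the platelet markers (461 and 648 RPKM, mostly Pf4). Of these, 3 of the 4 kept were higher, Gp1ba was lower and 4 of the 10 listed were at 0 in both. Corrected for GC content and length, the log2 ratio of Pdgfb was 0.097 in place of 0.43. The part of fibroblasts and platelets in these differences was not tested.

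Vegfb, the ligand of VEGF receptor 1 that has been linked to fatty acid transport and vessel survival, was lower in the clodronate library. The locus on chromosome 19 from 7056961 to 7062141 holds 2 RefSeq transcripts and had 20.7 and 10.8 RPKM. This was 1.92-fold lower (1.57 to 2.37), the widest interval of the 10 genes, since the short transcript held about 324 and 137 reads. Vegfa, the main hypoxia-regulated ligand of the family, was more abundant and differed less, with 91.3 and 80.8 RPKM. Vegfa therefore stood at 4.40 times the level of Vegfb in the vehicle library and at 7.49 times in the clodronate library. The other ligands were low, with Vegfc at 0.476 and 1.91 RPKM, Vegfd (listed as Figf) at 5.47 and 4.25 RPKM and Pgf at 0 and 0.921 RPKM. Among the receptors, the kinases Flt1 and Kdr stayed under 1 RPKM in both libraries and Flt4 was listed at 0. The coreceptors of the neuropilin type were well detected and higher in the clodronate library, Nrp1 with 38.7 and 57.8 RPKM and Nrp2 with 52.1 and 84.6 RPKM.

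Igf1, a ligand that macrophages and fibroblasts make in injured tissue, differed little. On chromosome 10, from 87321800 to 87399792, 5 RefSeq transcripts share the locus, which had 37.8 and 32.4 RPKM. The level was 1.17-fold lower (1.07 to 1.27). Its relative Igf2 was near 0, with 0.0416 and 0.510 RPKM. Of the binding proteins, which hold the ligand outside the cell, Igfbp4 was the only one above 10 RPKM, with 59.4 and 83.2 RPKM. Igf2r, the scavenger receptor of the family, had 24.1 and 32.5 RPKM, Insr 7.56 and 7.56 RPKM, and Irs2, an adaptor of insulin receptor signaling, 14.1 and 22.5 RPKM.

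Hbegf encodes an EGF-like ligand that is anchored in the membrane until a protease releases it. The gene, on chromosome 18 from 36664580 to 36675459, had 8.92 and 12.4 RPKM, 1.39-fold higher (1.17 to 1.64) on about 271 and 306 reads. No other ligand of the EGF family reached this level. Areg had 2.19 and 1.61 RPKM, Nrg1 0.649 and 3.74 RPKM, and Tgfa and Epgn were listed at 0 in both. The shedding machinery was well expressed, with Adam17 at 42.0 and 53.5 RPKM, Adam10 at 59.2 and 55.4 RPKM and Rhbdf2, a partner that guides Adam17 to the surface, at 32.5 and 51.0 RPKM. Egfr, its receptor, was low with 2.24 and 1.88 RPKM.

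Tgfb1, the ligand that restrains immune cells and drives matrix production, was higher in the clodronate library. With its locus on chromosome 7 from 26472020 to 26490015, it had 112 and 167 RPKM, 1.49-fold higher (1.43 to 1.57). It was the main ligand of its family, since Tgfb3 had 6.04 and 4.05 RPKM and Tgfb2 0 and 0.0197 RPKM. Furin, the protease that cuts the precursor, differed in the same direction with 72.9 and 135 RPKM, and Nrros, which tethers the latent form on macrophages, had 74.3 and 80.6 RPKM. The genes of the receptor pair stood in opposite order in the libraries. Tgfbr1 had 78.5 and 31.3 RPKM, 2.51-fold lower (2.38 to 2.64), while Tgfbr2 had 47.1 and 78.2 RPKM, 1.66-fold higher (1.59 to 1.74). The level of Tgfbr1 was thus 1.67 times that of Tgfbr2 in the vehicle library and 0.400 times in the clodronate library. These ratios carry no correction for GC content, which is 41.0% for the Tgfbr1 transcript and 52.1% for that of Tgfbr2. Genes in the same GC bins had median log2 ratios of -0.24 and 0.055, respectively. Of genes that the pathway is known to induce, Tgfbi had 592 and 808 RPKM, Skil 95.7 and 78.6 RPKM and Smad7 6.20 and 4.87 RPKM.

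Spp1, the gene of osteopontin, a secreted phosphoprotein that binds integrins and Cd44, had the largest difference among the genes that were higher. Located on chromosome 5 from 104864129 to 104870072 with 5 RefSeq transcripts, Spp1 had 406 and 755 RPKM, 1.86-fold higher (1.804 to 1.913). The ratio of Pdgfc was close, 1.82 (1.55 to 2.15), and its counting interval holds that of Spp1. Spp1 ranked 225th of the 10982 genes kept in the vehicle library and 126th in the clodronate library. Thbs1, which encodes thrombospondin 1, an inhibitor of vessel growth that also activates latent TGF-beta, stood near the level of Spp1 in the vehicle library but below it in the clodronate library. The gene, on chromosome 2 from 117937657 to 117952869, had 413 and 343 RPKM, 1.203-fold lower (1.18 to 1.22). The level of Spp1 was 0.985 times that of Thbs1 in the vehicle library and 2.202 times in the clodronate library. The other genes of the osteopontin family, Ibsp, Dmp1, Mepe and Dspp, were listed at 0 in both, and Thbs2 and Thbs3 stayed under 2 RPKM. Receptors of both proteins were abundant, with Cd44 at 292 and 352 RPKM, Itgb1 at 175 and 120 RPKM, Cd36 at 71.9 and 81.7 RPKM, Cd47 at 92.5 and 67.0 RPKM and Lrp1, an endocytic receptor of thrombospondin, at 225 and 386 RPKM.

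Gpnmb, a membrane glycoprotein of lysosome-rich and lipid-laden macrophages whose shed part has been linked to vessel growth, was lower in the clodronate library. Its locus on chromosome 6 from 48986516 to 49008181 had 56.6 and 39.6 RPKM, 1.43-fold lower (1.34 to 1.52). Its relative Pmel, known from pigment cells, had 7.95 and 0.415 RPKM, which was past 3-fold on the log2 scale with a ratio of -2.66. The clodronate value is near the floor, and no counting interval was computed for Pmel. Genes that are often expressed with Gpnmb in such macrophages differed less, with Trem2 at 444 and 349 RPKM, Lpl at 42.2 and 51.8 RPKM, Fabp5 at 131 and 120 RPKM and Ctsd at 1501 and 1406 RPKM.

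**Figure D2:**
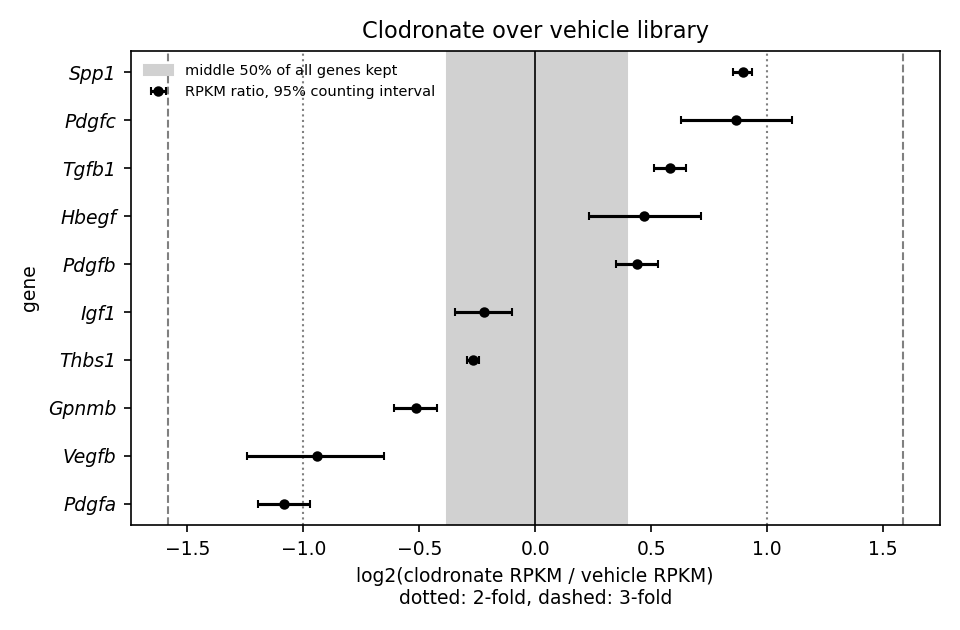
Log2 ratio of the RPKM values, clodronate over vehicle library, for each of the 10 genes, with bars for the 95% counting interval from estimated reads. The shaded band is the middle 50% of all genes kept, from -0.38 to 0.40 on the scale with 1 RPKM added, and the dotted and dashed lines mark 2-fold and 3-fold. All 10 intervals leave out 0, Igf1 and Thbs1 lie inside the band, and no point reaches 3-fold. The share of all genes kept with such an interval was not computed.

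The counting intervals of all 10 genes excluded a ratio of 1, but these intervals hold no spread between samples of a condition. The share of all genes kept whose interval excludes 1 was not computed, so the count cannot be read as a trait of the 10 genes. The 3 genes of complement C1q, whose products assemble into a single complex and which served as macrophage markers here, were picked with their values seen. They rest on many reads, but other markers do too. Lyz2, on about 177554 and 153418 reads, had a ratio of 1.06 (1.05 to 1.07). C1qa was 1.32-fold higher in the clodronate library (1.29 to 1.35), C1qb had a ratio of 1.004 (0.990 to 1.02) and C1qc was 1.95-fold lower (1.92 to 1.98). C1qc had the largest difference of the 16 macrophage markers, and 9 of the 10 genes differed by a smaller factor than C1qc. The median log2 ratio without its sign was 0.28 for these markers, against 0.54 for the 10 genes. Both sets were chosen with earlier results of these data known, so neither median is an independent yardstick for the other. Whether the C1q genes differed between the conditions was not tested. Ratios in these libraries also varied with the GC content of the transcript, with a median log2 ratio of -0.24 for the 1085 most GC-poor genes and 0.29 for the 1085 most GC-rich. Pdgfb, Tgfb1 and Vegfb have GC-rich transcripts (60.0%, 62.5% and 62.3%), whereas Spp1 is at 44.1%. After correction for GC content and length the log2 ratio of Pdgfb was 0.097 in place of 0.43, that of Tgfb1 0.36 in place of 0.58 and that of Igf1 -0.12 in place of -0.22. The same correction took Spp1 from 0.89 to 1.16 and Vegfb from -0.88 to -1.05, past 2-fold, while Pdgfa went from -1.06 to -1.05 and so no longer had the largest difference.

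**Figure D3:**
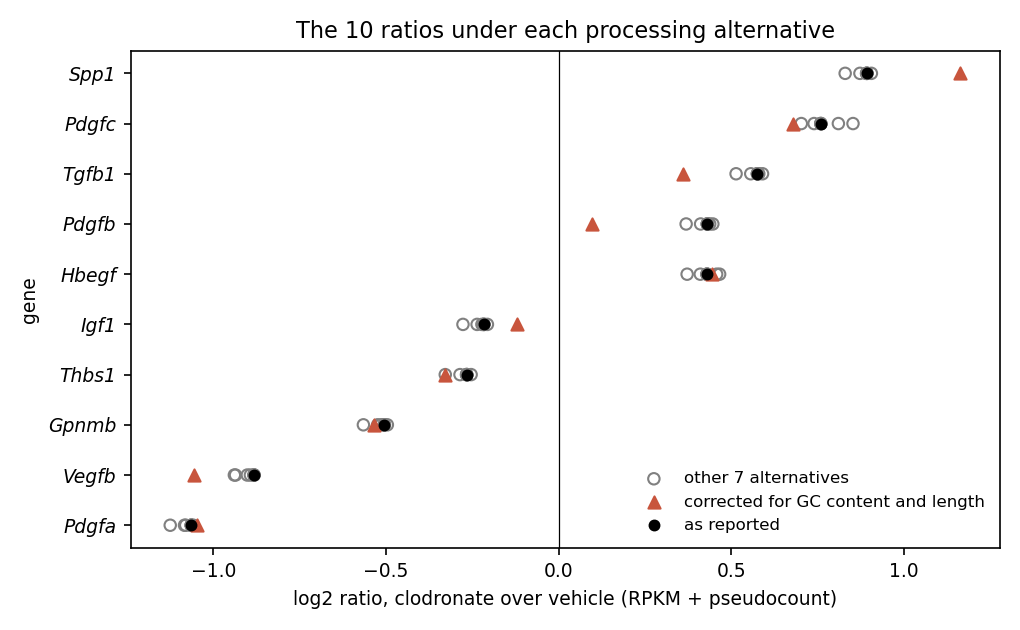
Log2 ratio of each of the 10 genes, clodronate over vehicle, as reported (filled circles), after correction for GC content and length (triangles) and under 7 other processing alternatives (open circles). No gene crosses 0, and the triangles of Pdgfb and Spp1 lie farthest from the reported values.

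The sequences before the start sites of Spp1 and Vegfb are shown because they had the lowest and the highest GC content of the 7 genes with an entry in the RefSeq promoter table (GRCm38.p6) and differed by nearly the same factor in opposite directions. Pdgfb, Hbegf and Thbs1 had no entry. Each run holds the 250 bases up to the start site, 5′ to 3′ on the strand of the gene. Capitals mark matches on either strand to TATAAA (known as the TATA box), TTTAAA (which resembles it), CCAAT (which binds NF-Y), GGGCGG (the GC box), TGANTCA (the AP-1 motif, where N is any base) or AACCACA (the RUNX motif). No match overlapped another. The window of Spp1 is chr5:104434861-104435110 on the plus strand, and that of Vegfb is chr19:6987652-6987901 on the minus strand.
Spp1: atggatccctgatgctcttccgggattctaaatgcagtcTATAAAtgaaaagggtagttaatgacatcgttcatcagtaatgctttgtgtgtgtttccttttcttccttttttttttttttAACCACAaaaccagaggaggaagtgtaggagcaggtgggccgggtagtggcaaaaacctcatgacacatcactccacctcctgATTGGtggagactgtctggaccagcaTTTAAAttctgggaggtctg
Vegfb: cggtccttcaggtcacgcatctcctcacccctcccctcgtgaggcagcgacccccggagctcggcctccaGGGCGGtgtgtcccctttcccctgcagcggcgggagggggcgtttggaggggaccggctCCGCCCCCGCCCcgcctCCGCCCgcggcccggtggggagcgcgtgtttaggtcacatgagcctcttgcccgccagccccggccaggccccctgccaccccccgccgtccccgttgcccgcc
The Spp1 window, with 43.6% GC, held 1 match each to TATAAA, the RUNX motif, the CCAAT motif and TTTAAA, and none to the GC box. The TATAAA match began 211 bases before the start and the TTTAAA match 20 bases before it. The Vegfb window, with 76.4% GC, held 4 matches to the GC box and none to the other motifs. Among 27025 promoter windows of the same length, whose median GC content was 52%, a GGGCGG match was present in 33.0%, TATAAA in 13.0%, TTTAAA in 12.1%, CCAAT in 34.5% and AACCACA in 4.46%. Of the 7 windows, 3 held GGGCGG (Pdgfa, Vegfb and Tgfb1), 2 held AACCACA (Spp1 and Gpnmb) and 1 held TGANTCA (Igf1), a motif present in 6.85% of all windows. The matches describe letters in these windows and not binding, and the libraries hold no measurement at promoters.

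The families around the 10 genes were described by 9 lists of ligands, receptors and regulators, the 10 genes included, beside the background of 2.86% and 2.32% of genes past 3-fold and 51.6% above 0. In the TGF-beta list, 8 of the 18 genes kept were higher and 10 lower, with 0 past 3-fold and a median log2 ratio of -0.12. In the VEGF list 3 of 6 genes were higher (median 0.20), in the PDGF list 2 of 4 (0.08), in the IGF list 5 of 7 (0.28) and in the EGF list 5 of 9 (0.15), again with 0 genes past 3-fold. The thrombospondin list had 6 of 8 genes higher (median 0.23) and the osteopontin list 7 of 9 (0.27), also with 0 past 3-fold. The IGF and osteopontin medians fell to 0.16 and 0.077 once ratios were corrected for GC and length. In the list of Gpnmb relatives 6 of 14 genes were higher, the median was -0.07 and Pmel, which has no counting interval, was the only gene past 3-fold. Among 9 other angiogenic factors kept, 3 were higher and the median was -0.22. Hgf, hepatocyte growth factor, was the only gene of that list past 3-fold, with 18.9 and 4.74 RPKM, 3.99-fold lower (3.38 to 4.73, about 839 and 171 reads). This call, at a log2 ratio of -1.79, carries no correction for GC content, and whether it would hold with one is not shown here. The Hgf transcript has 39.9% GC and so lies among the most GC-poor genes, whose median log2 ratio was -0.24. Granulin (Grn, 768 and 988 RPKM) and angiogenin (Ang, 275 and 218 RPKM) were more abundant than any of the VEGF or PDGF ligands. Tek was listed at 0 in both libraries, and Angpt2, its ligand, had 0 and 1.33 RPKM. Hgf, like Pdgfa, was lower together with the sum of the fibroblast markers, of which 7 of 8 genes kept were lower. Dcn had 77.3 and 28.4 RPKM, while Col1a1 was higher with 2.32 and 5.40 RPKM. The part of fibroblasts in these differences was not tested.

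**Figure D4:**
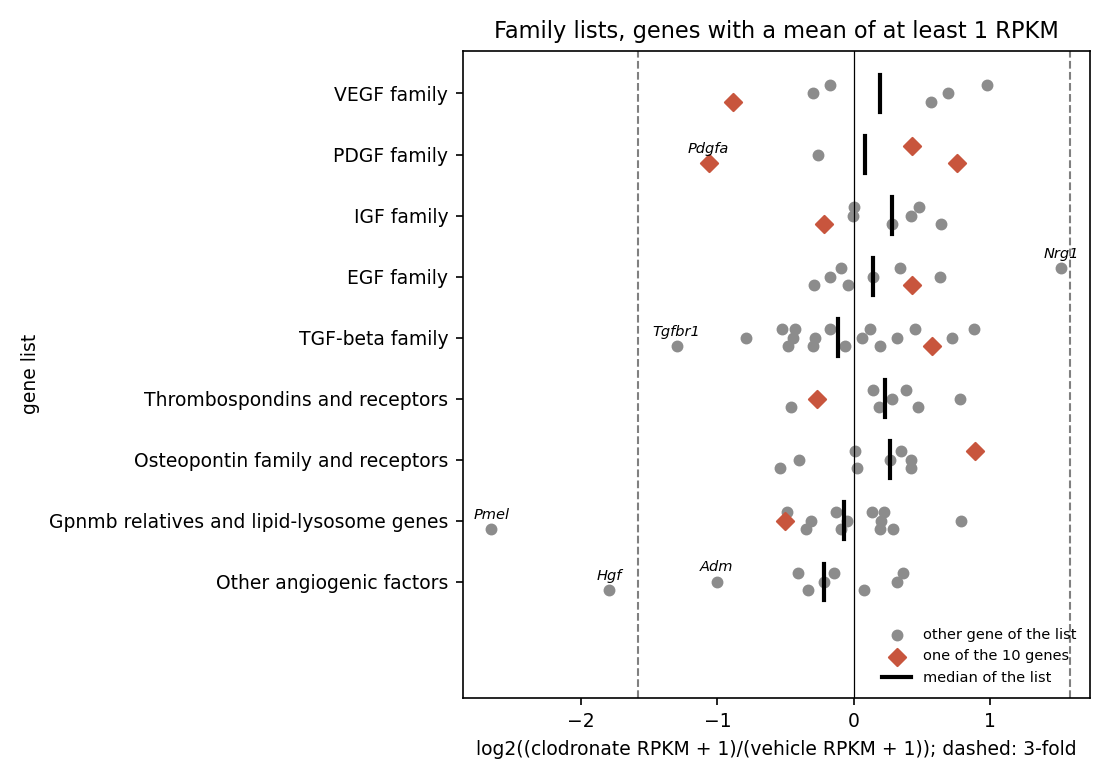
Log2 ratio of clodronate over vehicle RPKM, with 1 RPKM added to each, of the genes in 9 family lists that passed the filter. Diamonds are the 10 genes, circles the others, thick bars the list medians and dashed lines 3-fold; genes past 2-fold are named. List medians lie between -0.22 and 0.28, and only Hgf and Pmel lie past 3-fold, without a correction for GC content. Pmel is near the floor in the clodronate library.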

How the data were processed

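Poly(A) RNA of 2 sorted cell samples, 1 per condition by the labels, was sequenced. The authors deposited RPKM values for 23170 loci, and the submitters' processing notes name CASAVA 1.8.2, TopHat2 2.0.9, Bowtie 0.12.9, Cufflinks 2.2.1, Cuffdiff and the build mm9, without roles. Annotation release and strandedness are not given in the sources used here. No other locus overlaps the 10 genes. Lines of a symbol were summed, and an accession replaced 26 symbols that were numbers.

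Ratios used a pseudocount of 1 RPKM and a filter at a mean of 1 RPKM. Calls were made at 3-fold, or at 2-fold as an alternative, without a count model. The 10 genes and the lists were chosen with earlier results of these data known. All 10 genes are named. Any list gene could be named beside them, and not all are; which ones were chosen with their values seen. Vegfd and Adgre1 were found under older symbols through RefSeq synonyms, and 2 list genes were not found.

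Read numbers, chosen after seeing the data, came from loci with a single accession over 1500 nt and GENCODE M21 lengths matched by accession (98.7% of genes kept). Their ratios have Clopper-Pearson intervals. The GC and length correction subtracted medians of 10 bins each. Other alternatives were a pseudocount of 0.1, other filters (absent, or 5 RPKM), centring, an equal upper quartile, an equal RPKM sum and the highest line of a symbol. The equal sum was higher than the deposited sums of 601579 and 596143 RPKM, so it raised the values of both libraries. Filter and pseudocount stayed at 1 RPKM. Steps were tested on simulated data with Python 3.11.15, numpy 2.4.6, pandas 2.3.3, scipy 1.17.1 and matplotlib 3.10.9.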

Additional observations from a re-analysis of the deposited data

How the results depend on the processing

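No paired analysis was possible because the libraries are single, so none could be left out. In all 8 alternatives the 10 genes kept the sign of their log2 ratio, and 6 of 80 values moved by more than the half-width of their counting interval, 4 of them under the correction for GC content and length. That correction turned the median of the 10 genes from 0.11 to -0.011, gave 1 gene past 2-fold higher and 2 lower in place of 0 and 1, and turned the PDGF list median from 0.08 to -0.12, which a pseudocount of 0.1 also moved below 0 (-0.0025). Of 72 values of the list medians, 10 others moved without changing sign. Without a filter the VEGF median was 0.075, IGF 0.14, osteopontin 0.0087 and other angiogenic factors 0. With a filter at 5 RPKM the PDGF median was 0.43, IGF 0.42 and osteopontin 0.15. With an equal RPKM sum the EGF median was 0.36. None of the 10 genes reached 3-fold in any alternative, and at 2-fold 1 was lower. Over all genes, 314 were higher and 255 lower at 3-fold. These became 532 and 480 with a pseudocount of 0.1, 127 and 101 with a filter at 5 RPKM and 763 and 744 at 2-fold. With an equal RPKM sum they became 501 and 406. That setting scaled both libraries up while filter and pseudocount stayed at 1 RPKM. An equal upper quartile turned the median of all genes from 0.02 to -0.037. Filters could not move the 10 genes, which all pass them, and neither could the highest line of a symbol, since each gene has 1 line. The values under these alternatives are counted among the 80. The cause of the other changes was not tested. Depth limits Vegfb, Hbegf and Pdgfc most, with 137 to 362 estimated reads in a library.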

Other observations

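Markers of other cell types were low. The neutrophil markers summed to 46.1 RPKM for vehicle and 46.0 RPKM for clodronate, with 4 of 8 genes found listed at 0 in both. The T and NK cell markers summed to 11.1 and 8.74 RPKM, of which Cd4 made up 10.3 and 7.72 RPKM. The dendritic cell markers summed to 28.0 and 32.6 RPKM. In that list Cd209a, a lectin of monocyte-derived cells, had 1.25 and 8.68 RPKM, 6.96-fold higher in the clodronate library (counting interval 4.42 to 11.1), while Itgax had 21.2 and 19.6 RPKM. Among the macrophage markers, Mrc1, the mannose receptor, had 174 and 289 RPKM and Adgre1 (listed as Emr1), the gene of F4/80, had 357 and 261 RPKM.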
